A study of Saccharomyces cerevisiae with 30 samples.

Results

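Transcript levels of 10 genes that handle histones or control the histone genes were followed through a synchronized time course of Saccharomyces cerevisiae. The 10 genes were chosen by name, as the histone chaperones and histone gene regulators ASF1, RLF2, CAC2, MSI1, HIR1, HIR2, HIR3, HPC2, SPT21 and RTT109, and make up 10 of the 7127 features in the deposited table of transcript levels. The dataset is Yeast Cell Cycle 2 of the study, a single culture whose strain, a derivative of BF264-15D, was MATa and bar1 and so lacked the protease that degrades the mating pheromone alpha-factor. The rich medium held 2% dextrose, and the temperature was 38.5 °C. Cells were kept in alpha-factor for 2.5 h, and the pheromone was then removed by a change to fresh medium. Total RNA was sampled every 10 min from 0 to 290 min, with 1 library at each of the 30 time points and no replicate, so all values are descriptions of 1 culture and no test between time points was possible. Levels are in TPM, the share of each transcript in a fixed total, which correct for transcript length and sum to 1000000 in each library, so the depth of each library is unknown. Because the culture was measured in bulk, a larger share of cells at a stage and more RNA per cell cannot be told apart.

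Newly made histones are bound by chaperones until they are built into chromatin, and in budding yeast the histone genes are transcribed in a burst at the start of DNA replication. Asf1 receives histones H3 and H4 and passes them to chromatin assembly factor 1 (Rlf2, Cac2 and Msi1), which deposits them behind the replication fork, and to the HIR complex (Hir1, Hir2, Hir3 and Hpc2), which deposits histones outside replication and represses most histone genes when DNA is not being copied. Spt21 is needed for full histone gene activation in S phase, and Rtt109 acetylates a lysine in the core of new histone H3 with the help of Asf1. Genes switched on at the G1/S transition commonly carry the sequence elements MCB or SCB, which are bound by the factors MBF (Mbp1 with Swi6) and SBF (Swi4 with Swi6).

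The sequence before the gene start is given first, and its letters divided the 10 genes. ASF1, RLF2 and SPT21 were the genes with an MCB, and a link between these letters and the levels below was not tested. The letters ACGCGT (MCB, the same on both strands) and CGCGAAA (SCB, searched on both strands) were looked for from 250 bases before to 50 bases after the annotated gene start, which is the first base of the start codon, in the R64 assembly from RefSeq. The windows of the MCB genes are printed below 5′ to 3′ on the strand of the gene, with each MCB in capitals. They are chrX:196037-196336 on the plus strand for ASF1, chrXVI:594226-594525 on the plus strand for RLF2 and chrXIII:619608-619907 on the plus strand for SPT21.
ASF1: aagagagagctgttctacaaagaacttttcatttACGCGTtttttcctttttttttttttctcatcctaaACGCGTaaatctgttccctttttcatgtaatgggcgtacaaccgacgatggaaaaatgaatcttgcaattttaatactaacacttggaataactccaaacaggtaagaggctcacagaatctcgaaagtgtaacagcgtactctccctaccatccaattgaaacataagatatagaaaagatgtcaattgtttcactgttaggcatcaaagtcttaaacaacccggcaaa
RLF2: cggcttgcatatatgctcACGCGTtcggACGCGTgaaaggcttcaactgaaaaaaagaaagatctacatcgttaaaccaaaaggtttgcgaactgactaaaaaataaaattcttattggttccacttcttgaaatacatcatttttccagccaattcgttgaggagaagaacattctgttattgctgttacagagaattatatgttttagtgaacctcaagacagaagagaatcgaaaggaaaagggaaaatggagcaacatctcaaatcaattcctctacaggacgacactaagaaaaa
SPT21: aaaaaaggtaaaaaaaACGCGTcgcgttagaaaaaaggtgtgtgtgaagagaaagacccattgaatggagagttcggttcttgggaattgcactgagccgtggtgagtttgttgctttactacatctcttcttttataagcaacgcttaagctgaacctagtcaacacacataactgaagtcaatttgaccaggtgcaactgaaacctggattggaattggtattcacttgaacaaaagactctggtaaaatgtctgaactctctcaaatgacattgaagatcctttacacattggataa

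ASF1 (YJL115W, chromosome X, 196287 to 197126, plus strand) had MCB letters starting 216 and 180 bases before the gene start. RLF2 (YPR018W, chromosome XVI, 594476 to 596296, plus strand) had them 232 and 222 bases before the start, and SPT21 (YMR179W, chromosome XIII, 619858 to 622134, plus strand) had them once, 234 bases before the start. Of the promoters of 6020 genes, 3.06% held the MCB letters in a window of this length, and 3 of the 10 genes did. SCB letters were found in 3.59% of promoters and in 4 of the 10 genes, and 6.4% of promoters held either. In a list of 10 genes that mark the G1/S transition, used below, 3 held MCB letters, 1 SCB letters and 3 either in this window. No MCB and SCB match overlapped in the 10 histone chaperone and regulator genes. The 3 SCB matches that lie before a gene start are shown in stretches of 67 bases with the SCB in capitals, since they stood at nearly the same distance from the start. The stretches are chrII:611971-612037 for MSI1, chrXV:405481-405547 for HIR2 and chrX:695787-695853 for HIR3, all on the minus strand, which is the strand of these genes.
MSI1: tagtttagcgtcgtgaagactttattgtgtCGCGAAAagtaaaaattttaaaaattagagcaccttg
HIR2: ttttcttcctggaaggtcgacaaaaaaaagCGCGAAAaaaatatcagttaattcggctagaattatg
HIR3: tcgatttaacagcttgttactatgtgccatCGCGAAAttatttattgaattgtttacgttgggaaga

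The SCB letters began 125 bases before the start of MSI1 (YBR195C, chromosome II, 610614 to 611882), 129 bases before HIR2 (YOR038C, chromosome XV, 402761 to 405388) and 127 bases before HIR3 (YJR140C, chromosome X, 690750 to 695696). HIR2 and HIR3 are transcribed away from their upstream neighbours CKB2 and IPA1, so the sequence between each pair, 379 and 209 bases long, lies before both genes. The same holds for ASF1 with NCA3, RLF2 with DSS4 and CAC2 with the snoRNA gene SNR85, which are 1413, 558 and 355 bases apart. In HIR1 (YBL008W, chromosome II, 209653 to 212175, plus strand) the only match was 44 bases after the gene start, inside the gene. The annotated gene YBL008W-A, on the same strand, ends 4 bases before HIR1, so the window searched reaches into YBL008W-A. CAC2 (YML102W, chromosome XIII, 68294 to 69700, plus strand), HPC2 (YBR215W, chromosome II, 653356 to 655317, plus strand) and RTT109 (YLL002W, chromosome XII, 146291 to 147601, plus strand) had neither set of letters in the window. None of the 10 genes overlaps another annotated gene. A match is a description of the letters only and was not tested for binding.

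**Figure D1:**
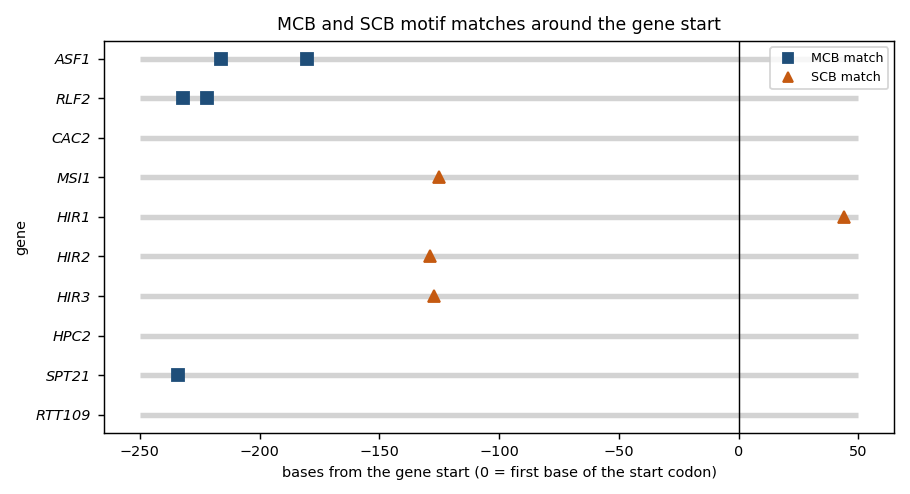
Position of MCB letters (squares) and SCB letters (triangles) in bases from the gene start, for the 10 genes, over the window searched (grey bars). The MCB matches lay between 234 and 180 bases before the start in ASF1, RLF2 and SPT21, and the SCB matches of MSI1, HIR2 and HIR3 between 129 and 125 bases before it.

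All 10 genes were detected above 0 TPM at each of the 30 time points and averaged 1 TPM or more, and 6 averaged 10 TPM or more. The mean level over the time course was highest for ASF1, at 39.8 TPM, and for CAC2, at 33.4 TPM. The other 8 genes lay between 12.8 TPM for MSI1 and 5.30 TPM for HIR3. In between came HIR1 at 11.8, RLF2 at 11.4, HPC2 at 10.3, HIR2 at 9.22, SPT21 at 8.23 and RTT109 at 7.59 TPM. CAC2 was above MSI1, and RTT109 above HIR3, at all 30 time points, and the lowest value of CAC2 (25.9 TPM) was above the highest of MSI1 (17.1 TPM). ASF1 was above CAC2 at 26 time points, the exceptions including 0 min. Neighbours in the middle of the order changed places more often: HIR1 was above RLF2 at 18 of 30 time points, SPT21 above RTT109 at 20, and RLF2 above HPC2 at 21. The subunits of chromatin assembly factor 1 were therefore not at equal transcript levels, with CAC2 above both MSI1 and RLF2 at every time point.

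Since there were no replicates, error was taken from how far a value departs from the mean of its neighbours in time. This point-to-point scatter was taken on the scaled values defined below, so it leaves out shifts common to a whole library. From 170 to 280 min, it was 0.10 on the log2 scale at the median of the 10 genes, ranging from 0.08 for HIR3 to 0.22 for RTT109. It was 0.14 for SPT21 and 0.13 for HIR2. Across all features averaging 10 TPM or more, a set that leaves out 4 of the 10 genes, the median was 0.09. A comparison with a scale that allows for shifts common to all genes was also made, with each library's TPM divided by its median-of-ratios factor. The factors ran from 0.746 at 10 min to 1.16 at 150 min, and levels on this scale are called scaled.

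The largest changes came within 10 min of release from alpha-factor. ASF1 stood at 21.9 TPM at 0 min, reached 67.9 TPM by 10 min and 70.2 TPM by 20 min, and then fell to 49.8 TPM at 30 min. By 70 min it was down to 28.8 TPM. Its values at 10 and 20 min were above those of all other 28 time points on both scales. SPT21 went from 4.65 TPM at 0 min to 10.9 TPM at 10 min and 9.84 TPM at 20 min, and had come down to 6.02 TPM at 60 min. On the TPM scale only its value at 140 min, 11.4 TPM, was higher than that at 10 min, whereas on the scaled values 10 and 20 min were its highest time points. RLF2, the gene for the large subunit of chromatin assembly factor 1, went from 8.25 TPM at 0 min to 14.1 TPM at 10 min and 15.2 TPM at 20 min, before falling to 9.30 TPM at 70 min. RTT109 went from 3.78 TPM at 0 min through 7.65 and 9.13 TPM at 10 and 20 min to 12.1 TPM, its highest value, at 30 min. Thus ASF1, SPT21 and RLF2 were at their highest scaled level at 10 min, as was CAC2, and RTT109 at 30 min. Of 14 other histone chaperone genes, 6 also had their highest scaled level from 0 to 80 min at 10 min, the time point with the lowest factor.

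**Figure D2:**
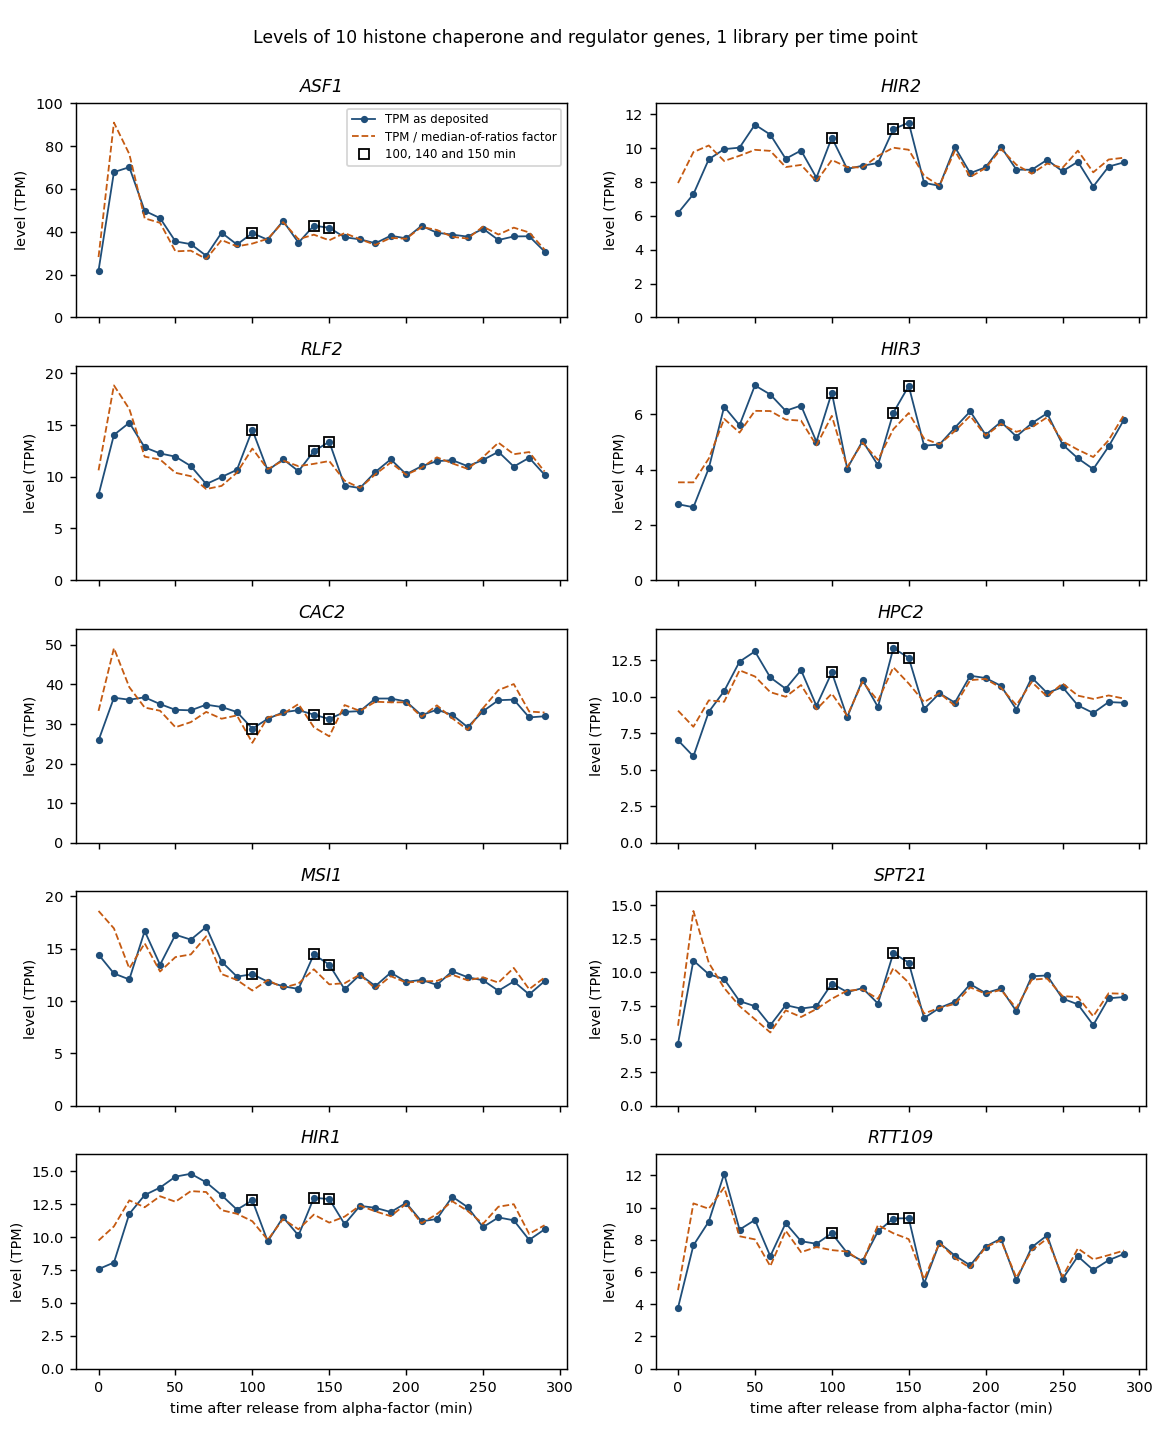
Level of each of the 10 genes in TPM against time after release in min, with 1 library per point (circles and line), the same values divided by the median-of-ratios factor of the time point (dashed line), and the time points 100, 140 and 150 min, described below as STRIPEs (squares). ASF1 was highest at 20 min (70.2 TPM), while HIR3 rose from 2.64 TPM at 10 min to 7.05 TPM at 50 min.

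The other 6 genes rose less than these or not at all in the first 10 min. CAC2 went from 25.9 TPM at 0 min to 36.7 TPM at 10 min and stayed between 28.9 and 36.8 TPM from 30 min on. MSI1 went from 14.4 TPM at 0 min down to 12.6 and 12.1 TPM at 10 and 20 min, and 0 min was its highest time point on the scaled values. The HIR complex genes were low at first: HIR3 was at 2.75 TPM at 0 min and 2.64 TPM at 10 min, and HPC2 at 7.02 and 5.92 TPM. HIR1 was at 7.56 TPM at 0 min and 8.06 TPM at 10 min, and HIR2 at 6.17 and 7.29 TPM. The 3 subunit genes of chromatin assembly factor 1 thus behaved differently in the first 10 min, since RLF2 rose 1.70-fold, CAC2 rose 1.42-fold and MSI1 was at 0.875 times its level at 0 min. The step from 0 to 10 min of ASF1, RLF2, CAC2, SPT21 and RTT109 was larger than any of the 26 later steps between neighbouring time points from 30 min on, on either scale. For ASF1 that step was 1.63 on the log2 scale and its largest later step 0.46. For HIR1 and HIR3, 14 and 24 of the later steps were at least as large.

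A comparison of 10 and 20 min with 0 min was added after the time courses had been seen, because it covers this rise. Of the 10 genes, 4 were at least 1.5-fold higher and 0 at least 1.5-fold lower, against 15.2% of 6336 features higher and 8.57% lower. The ratio of mean TPM was 3.15-fold for ASF1, 2.23-fold for SPT21, 2.22-fold for RTT109 and 1.77-fold for RLF2. On the scaled values it was 2.97-fold, 2.11-fold, 2.07-fold and 1.67-fold, against 11.9% of features higher. ASF1 was 142nd from the top of all features, SPT21 306th and RTT109 312th. For the remaining genes the ratio lay between 1.41-fold for CAC2 and 0.855 for MSI1, and HPC2 was slightly higher in TPM (log2 0.08) but slightly lower on the scaled values (log2 -0.03). These values rest on the single library at 0 min, and 0, 10 and 20 min are among the time points that the detector of the study called as departing from the others. Compared to 60 to 80 min instead, which leaves that library out, 10 and 20 min were 2.02-fold higher for ASF1, 1.49-fold for SPT21, 1.45-fold for RLF2 and 1.05-fold for RTT109. In this comparison, also added afterwards, all features were shifted by a median of -0.38 on the log2 scale. In TPM, ASF1 was past 1.5-fold higher, against 2.75% of features, and HIR3 and HPC2 were past 1.5-fold lower, against 30% of features. On the scaled values ASF1 (2.65-fold), SPT21 (1.97-fold) and RLF2 (1.90-fold) were past 1.5-fold higher, against 8.93% of features, and 0 of the 10 genes were past it lower, against 9.07%.

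**Figure D3:**
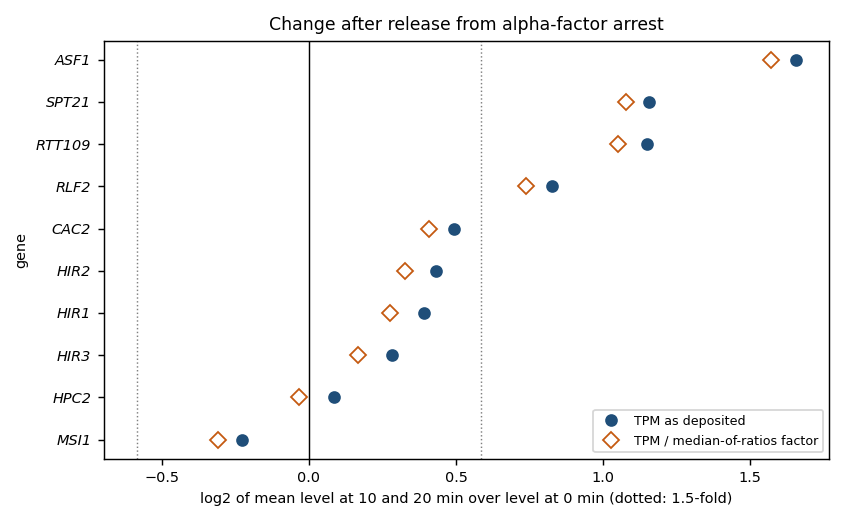
Log2 ratio of the mean level at 10 and 20 min to the level at 0 min for each gene, in TPM (circles) and scaled values (diamonds), with 1.5-fold marked by dotted lines. ASF1 (1.66), SPT21 (1.16), RTT109 (1.15) and RLF2 (0.83) lay beyond 1.5-fold higher on both scales, and MSI1 was below 0.

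Other genes of the same pathways were read from lists of known members. All 10 of 10 genes that mark the G1/S transition were at least 1.5-fold higher at 10 and 20 min than at 0 min, from 1.91-fold for SWE1, a kinase that restrains mitosis, to 5.87-fold for MCD1, a cohesin subunit. All 8 core histone genes were at least 1.5-fold higher as well, with log2 ratios from 0.64 for HHT1, a histone H3 gene, to 2.32 for HTA2, and 7 of 8 were past 1.5-fold on the scaled values. Between 10 and 20 min the core histone genes went on rising, and 8 of 8 were past 1.5-fold in TPM, against 17.9% of features. All features shifted by a median of 0.30 on the log2 scale over this step. On the scaled values HHT2 (1.46-fold) and HHF2 (1.40-fold) were short of 1.5-fold, and 5.72% of features were past it. ASF1 and SPT21 changed little in TPM over the same step, with log2 ratios of 0.05 and -0.14, but were lower on the scaled values, at -0.25 and -0.45. The core histone genes reached their first peak at 30 min in 8 of 8 cases, whereas ASF1 and RLF2 peaked at 20 min and SPT21 at 10 min in TPM. Among 14 other histone chaperone genes, 1 was at least 1.5-fold higher at 10 and 20 min than at 0 min, against the 15.2% of features given above. It was HIF1, a nuclear partner of the Hat1 histone acetyltransferase, at 1.70-fold, and the lowest was KAP123, a karyopherin that imports histones, at 0.673 times its level at 0 min. Of 7 other regulators of histone gene expression or histone levels, 2 were past 1.5-fold higher: SWI4, the DNA-binding part of SBF, at 2.33-fold and RAD53, a checkpoint kinase, at 1.98-fold. Of 6 genes that work with or against Rtt109, 1 was past 1.5-fold higher in TPM, against 15.2% of features, and 0 on the scaled values, against 11.9%. It was HST3, a deacetylase that removes the mark made by Rtt109, at 1.55-fold in TPM and 1.43-fold scaled.

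Promoter letters and the early rise were also set side by side for all features, and whether the letters cause the rise was not tested. The 182 measured genes with at least 1 MCB in the window had a median log2 ratio of 0.43 for 10 and 20 min over 0 min, compared to 0.09 over 5719 genes, and 42.3% of them were past 1.5-fold higher, against 13.9% of the 5719. Genes with 2 or more MCBs numbered 20, ASF1 and RLF2 among them, and 85% were past 1.5-fold higher. For the 207 genes with an SCB the share was 32.9%. MSI1, HIR2 and HIR3, with an SCB before the start, were not among the genes past 1.5-fold, and RTT109, with neither set of letters, was. At 110 to 130 min over 60 to 80 min, 0% of the 20 genes with 2 or more MCBs were past 1.5-fold higher in TPM, against 1.41% of all genes. On the scaled values the shares were 10% and 2.61%. The median log2 ratio in TPM was 0.20 for these 20 genes and -0.14 for all genes.

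In TPM the HIR complex genes went on rising after 20 min while ASF1 fell. From 10 to 20 min HIR3 rose from 2.64 to 4.05 TPM, HPC2 from 5.92 to 8.96 TPM, HIR1 from 8.06 to 11.8 TPM and HIR2 from 7.29 to 9.35 TPM. HIR3 reached 7.05 TPM and HPC2 13.1 TPM at 50 min, HIR2 11.4 TPM at 50 min and HIR1 14.8 TPM at 60 min. In TPM all 4 genes thus peaked at 50 or 60 min in this cycle, later than ASF1, RLF2, SPT21 and RTT109. On the scaled values HIR3 (50 min) and HIR1 (60 min) kept these times, whereas HIR2 was highest at 20 min (10.2) and HPC2 at 40 min (11.8). Scaled HIR2 lay between 9.25 and 9.91 from 30 to 60 min, and scaled HIR1 went from 12.8 at 20 min to 13.5 at 60 min, so neither rose much further on that scale. In the mean of 30 to 50 min over 0 to 20 min, 3 of 10 genes were at least 1.5-fold higher, against 28.7% of 6352 features, and 0 were lower, against 2%. HIR3 was 2.01-fold higher, HPC2 1.64-fold and HIR1 1.52-fold, while ASF1 was at 0.823 times its earlier level. This comparison shares the early time points with those above, and it carries a shift common to all features of 0.40 on the log2 scale. Relative to that shift, on the scaled values, HIR3 alone was past 1.5-fold higher (1.51-fold, against 5.92% of features) and ASF1 alone past 1.5-fold lower (1.61-fold, against 8.31%). HPC2 was then 1.23-fold and HIR1 1.14-fold higher. In the same comparison HST3 rose 4.49-fold and was highest at 60 min, at 77.5 TPM, after the peak of RTT109 at 30 min.

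Later in the first cycle window means were compared. In the mean of 30 to 50 min over 60 to 80 min, 0 of 10 genes were past 1.5-fold in either direction, against 5.01% of 6361 features. ASF1 was 1.28-fold, RTT109 1.25-fold, RLF2 1.22-fold and SPT21 1.19-fold higher at 30 to 50 min, and the remaining genes lay within 1.07-fold. Single time points differed more, and RTT109 went from 12.1 TPM at 30 min to 6.98 TPM at 60 min. Core histone genes moved further, with 8 of 8 at least 1.5-fold higher at 30 to 50 min, and so did 5 of 10 G1/S genes. MSI1 had its highest TPM at 70 min (17.1 TPM), little above 16.7 TPM at 30 min and 16.3 TPM at 50 min. It then came to 13.8 TPM at 80 min and 12.3 TPM at 90 min.

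For the next cycle, 110 to 130 min were compared to 60 to 80 min, the windows that share 60 to 80 min with the comparisons above. None of the 10 genes (0 of 10) was past 1.5-fold, against 6.35% of 6362 features in TPM and 6.07% on the scaled values, but they fell on both sides of the shift common to all features, which was -0.14 on the log2 scale. SPT21 was 1.20-fold higher, with 6.02, 7.53 and 7.27 TPM at 60, 70 and 80 min and 8.51, 8.80 and 7.65 TPM at 110, 120 and 130 min, so the windows did not overlap. ASF1 was 1.13-fold higher, with 34.2, 28.8 and 39.6 TPM in the earlier window and 36.3, 45.1 and 34.9 TPM in the later one, so the windows overlapped. RLF2 was 1.08-fold higher and its windows overlapped as well. On the scaled values they did not overlap for either gene, with ASF1 at 27.3 to 36.1 and then 36.5 to 44.5, and RLF2 at 8.81 to 10.1 and then 10.7 to 11.6. On the other side, HIR3 had 6.72, 6.13 and 6.32 TPM at 60 to 80 min and 4.04, 5.04 and 4.16 TPM at 110 to 130 min, which is 0.691 times the earlier level. HIR1 had 14.8, 14.2 and 13.2 TPM and later 9.67, 11.5 and 10.1 TPM, or 0.742 times. MSI1 had 15.9, 17.1 and 13.8 TPM and later 11.9, 11.4 and 11.2 TPM, or 0.737 times. The windows of these 3 genes did not overlap, and they remained lower on the scaled values, with log2 ratios of -0.40, -0.30 and -0.31. The share of all features with windows that did not overlap is not given here, so separate windows are a description only. CAC2 and RTT109 were below 0 in TPM (-0.07 and -0.10) and above 0 on the scaled values (0.07 and 0.04), so their direction depended on the scale. HIR2 (-0.16 and -0.02) and HPC2 (-0.21 and -0.08) were lower on both. In the lists, 3 of 10 G1/S genes were past 1.5-fold higher and 6 of 6 G2/M genes past it lower. Core histone genes were higher by 0.18 to 0.55 on the log2 scale, with 0 of 8 past 1.5-fold in TPM and 2 of 8 on the scaled values.

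**Figure D4:**
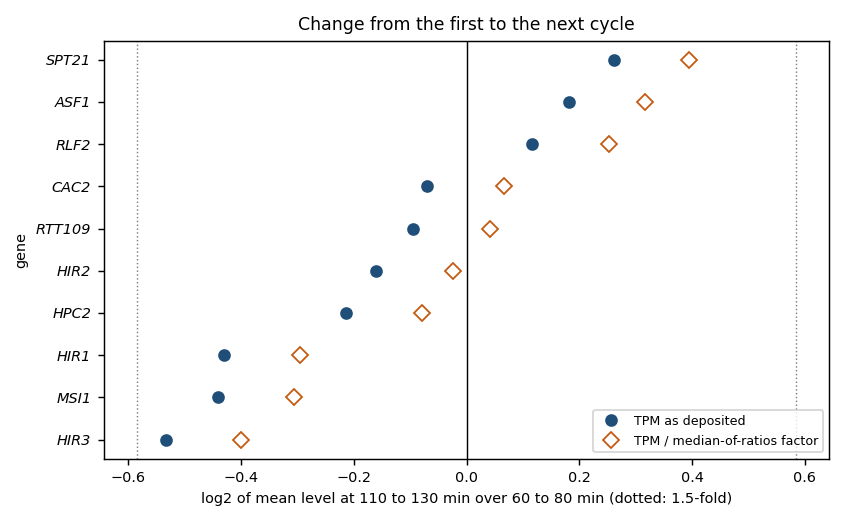
Log2 ratio of the mean level at 110 to 130 min to that at 60 to 80 min for each gene, in TPM (circles) and scaled values (diamonds), with 1.5-fold marked by dotted lines. SPT21 (0.26 in TPM), ASF1 (0.18) and RLF2 (0.12) lay above 0 and HIR3 (-0.53), MSI1 (-0.44) and HIR1 (-0.43) below 0 on both scales, and none passed 1.5-fold.

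STRIPEs are time points at which many transcripts depart from their neighbours at once. Those taken here, 100, 140 and 150 min, are the ones that the study lists both from inspection of heatmaps and from its detector. Its text also names 110 min as a mild case, and 110 min served here as a flank of 100 min and in the window from 110 to 130 min. ASF1, RLF2, MSI1, HIR1, HIR2, HIR3, HPC2, SPT21 and RTT109, 9 of 10 genes, were above both flanking time points at each of them, as were 66.1%, 73% and 75.1% of all features. CAC2 was below both flanks each time, with 28.9 TPM at 100 min between 33.1 and 31.3 TPM at 90 and 110 min, and 32.4 and 31.3 TPM at 140 and 150 min between 33.5 and 33.1 TPM at 130 and 160 min. On the scaled values 4, 7 and 5 of the 10 genes were above both flanks at 100, 140 and 150 min, as were 33.9%, 40.3% and 41.6% of all features, and CAC2 was below them at all 3. In the mean of 140 and 150 min over 130 and 160 min, 1 of 10 genes was past 1.5-fold higher, against 10.2% of features. That gene was SPT21, with 11.4 and 10.7 TPM against 7.65 and 6.56 TPM, a 1.56-fold ratio that was 1.31-fold on the scaled values. The shift common to all features in this comparison was 0.26 on the log2 scale.

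The late culture gave the following levels. From 160 min on ASF1 averaged 37.6 ± 2.86 TPM (SD over 14 time points), CAC2 33.7 ± 2.19 TPM and MSI1 11.8 ± 0.647 TPM. Among the HIR complex genes HIR1 averaged 11.6 ± 0.896 TPM, HPC2 10.1 ± 0.874 TPM, HIR2 8.84 ± 0.726 TPM and HIR3 5.24 ± 0.616 TPM. RLF2 averaged 10.9 ± 1.01 TPM, SPT21 8.02 ± 1.09 TPM and RTT109 6.85 ± 0.973 TPM. In the mean of 250 to 290 min over 160 to 200 min, 0 of 10 genes were past 1.5-fold, against 1.87% of 6351 features. The ratios lay between 1.13-fold for RLF2 and 0.897 for HIR1.

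The range of each gene from 30 min on was taken as its 90th over its 10th percentile in TPM. It ran from 1.16-fold for CAC2 to 1.57-fold for RTT109, and 0 of 10 genes reached 2-fold, against 9.34% of 6369 features. HIR3 also came to 1.57-fold, MSI1 to 1.44-fold, SPT21 to 1.41-fold and ASF1 to 1.28-fold. These ranges include point-to-point scatter, which on the log2 scale was 0.22 for RTT109, 0.08 for HIR3 and 0.09 for CAC2. When features were ranked by how well they followed a cosine curve with a period of 60 to 120 min, 0 of 10 genes were among the top 1000, which are 15.1% of the features ranked. SPT21 was closest, at rank 1074, followed by ASF1 at 1500, HIR3 at 1812 and RLF2 at 1823, and MSI1 was last at 5477. All 8 core histone genes ranked between 16 and 202. The ranks of ASF1 and RLF2 depended on how the time points were corrected. With the scores that the authors deposited after Z-score quantile normalization, 4 of the 10 genes were among the top 1000, with ASF1 at rank 300, RLF2 at 526, SPT21 at 658 and HIR3 at 913. Among the other lists, 8 of 10 G1/S genes, 6 of 6 G2/M genes, 5 of 5 M/G1 genes, 4 of 14 other chaperones, 3 of 7 other regulators and 3 of 6 genes that work with or against Rtt109 were in the top 1000 in TPM.

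Likeness of patterns was measured as Pearson's r of scaled log2 levels over the 27 time points from 30 min on, which leaves out the rise after release. These points share 1 culture and are not independent, so r is a description only. ASF1 (0.65), SPT21 (0.63), RLF2 (0.55) and RTT109 (0.44) followed the mean of the G1/S genes, and ASF1 (0.61) and RLF2 (0.45) also that of the core histones. HIR1 (0.52), HIR3 (0.44) and MSI1 (0.35) followed the mean of the G2/M genes instead. ASF1 (-0.70), SPT21 (-0.57) and RLF2 (-0.55) ran opposite to it. The r of MSI1 that was largest in size was -0.55, with the mean of the M/G1 genes. CAC2, HPC2 and HIR2 stayed within 0.32 of 0 for the G1/S, core histone and G2/M means. These values depended on the scaling. Without it, r with the G2/M mean was -0.41 for ASF1, -0.20 for SPT21 and -0.15 for RLF2, and 0.53 for HPC2 and 0.49 for HIR2, and HIR2 had 0.49 with the G1/S mean too. Between the 10 genes themselves r had a median of 0.08 over 45 pairs and was above 0 in 27 of them. The most alike pairs were MSI1 with HIR1 (0.62) and ASF1 with RLF2 (0.56), and the least alike CAC2 with HIR3 (-0.54) and HIR1 with SPT21 (-0.45). Within the HIR complex r ran from -0.05 for HIR1 with HIR2 to 0.42 for HIR3 with HPC2, and within chromatin assembly factor 1 from -0.33 for RLF2 with MSI1 to 0.06 for RLF2 with CAC2. Without scaling the median over pairs was 0.40, and 39 pairs were above 0. Pairs within the HIR complex then ran from 0.55 for HIR1 with HIR2 to 0.76 for HIR3 with HPC2, and those within chromatin assembly factor 1 from -0.22 for RLF2 with CAC2 to 0.16 for CAC2 with MSI1. The choice of time points mattered too. With scaling and all 30 time points, r with the G2/M mean was 0.47 for HIR1 and 0.76 for HIR3 but -0.44 for MSI1. In that setting MSI1 with HIR1 came to 0.09 and ASF1 with RLF2 to 0.84.

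**Figure D5:**
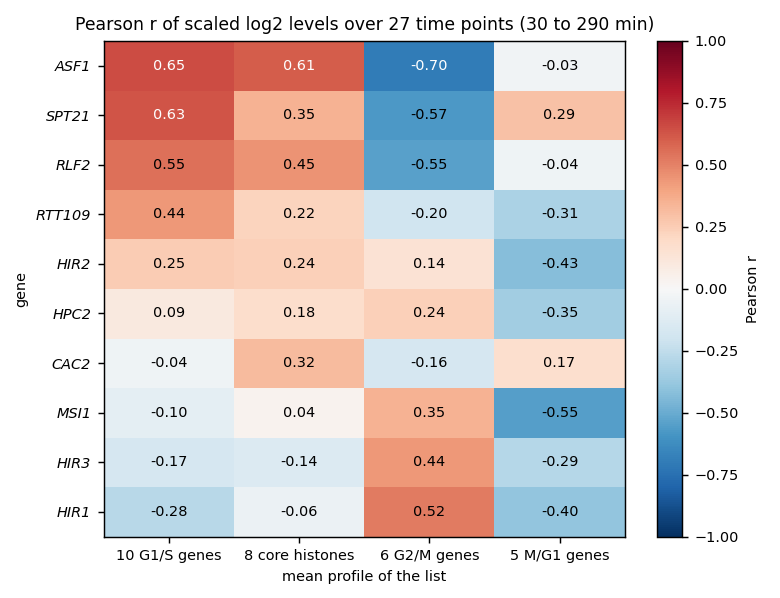
Pearson's r over 27 time points between the scaled log2 level of each gene (rows, ordered by their r with G1/S genes) and the mean profile of 4 gene lists (columns), with colour from -1 (blue) to 1 (red). ASF1, SPT21 and RLF2 had the highest r with G1/S genes (0.65, 0.63 and 0.55) and the lowest with G2/M genes (-0.70, -0.57 and -0.55), which without scaling were -0.41, -0.20 and -0.15.

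For each gene, the 3 features with the highest r were named among those averaging 10 TPM or more. The features nearest to ASF1 were RAD27, a nuclease that processes Okazaki fragments (0.80), RFA2, a subunit of the single-strand DNA binding protein of replication (0.78), and HIF1 (0.74). Those nearest to RLF2 were CDC45, part of the replicative helicase (0.64), MSH6, a mismatch repair gene (0.62), and YOR248W (0.61). MSH6 (0.73) was also near SPT21, between LOA1 (0.74) and ALG14, a gene of protein glycosylation (0.73). HIR3 was nearest to GEA2, a gene of vesicle traffic (0.88), HDA1, a histone deacetylase (0.86), and NUP192, a nuclear pore gene (0.86). HIR1 was nearest to ATM1, a mitochondrial transporter (0.78), FKH2, a transcription factor of G2/M genes (0.75), and IKI3, an Elongator subunit (0.75). HPC2 was nearest to TOP2, a DNA topoisomerase (0.70), YNL162W-A (0.67) and YBR113W (0.67), and HIR2 to DPH1 (0.70), SVP26 (0.62) and RCM1 (0.62). The nearest features of CAC2 were PAR32 (0.92), YIH1 (0.90) and ARO2, an enzyme of aromatic amino acid synthesis (0.90), the highest r of any of the 10 genes. MSI1 was nearest to TAT1 (0.79) and SAM3 (0.77), both transporters, and CHA1, a serine deaminase (0.77). RTT109 was nearest to MET10, a sulfite reductase subunit (0.71), PRM10 (0.68) and CDS1, an enzyme of phospholipid synthesis (0.67).

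The mating type on the label was checked against its markers. BAR1, the gene missing in a bar1 strain, was listed at 0 TPM at all 30 time points, and the MATa genes STE2 (164 to 343 TPM) and STE6 (35.7 to 72.7 TPM) were high. The alpha-cell genes MFALPHA1 (0.73 to 5.09 TPM) and STE3 (3.21 to 8.49 TPM) were low. The alpha-cell gene MFALPHA2 (14.4 to 22.2 TPM) was not near 0, though below STE2 and STE6 at every time point. The a-factor genes MFA1 and MFA2 were listed at 0 TPM at 28 and 5 time points, which in a table without counts can be a failed estimate.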

How the data were processed

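Total RNA of 1 alpha-factor-released culture was sequenced at 30 time points. Per feature TPM were deposited by the authors, who used STAR for alignment and RSEM for quantification (build R64 in the submitters' processing notes, versions not given in the sources used here). The authors also deposited a table of scores, which equal Z-score quantile normalization of the TPM to within 1e-12 for 99.49% of values and for all values of the 10 genes. The genes and gene lists were chosen with earlier results of these data known. Sample times came from the labels.

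Python 3.11.15, numpy 2.4.6, pandas 2.3.3, scipy 1.17.1 and matplotlib 3.10.9 were used. Ratios are of mean TPM over windows of time points with no pseudocount, and 1.5-fold was the limit. The background was every feature with a mean of at least 1 TPM and a level above 0 in at least 1 of the windows compared. Median-of-ratios factors used the 6170 features above 0 TPM at every time point. Likeness used log2(scaled TPM + 1). Scatter is the SD of 12 differences between a log2 scaled TPM and the mean of both neighbours, divided by the square root of 1.5. Ranking used Kendall's statistic. Genes named were the 10 genes, their 3 nearest features and the extremes of each list. The computations were tested on simulated data. With 1 sample a time point, no p-value was computed.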

Additional observations from a re-analysis of the deposited data

How the results depend on the processing

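No paired analysis was possible because all time points were sampled once. Counts that moved are given here. For 30 to 50 min over 0 to 20 min, 3 genes were past 1.5-fold, against 30.7% of features either way. The count was 5 when 20 min was left out of the earlier window, for which the share of all features is not given here. For 140 and 150 min over their flanks the count was 1, against 11.5% of features either way. It was 0 on scaled values (5.86% of features), among genes with a mean of at least 10 TPM (6.64% of such features) and with a pseudocount of 1. For 10 and 20 min over 0 min the count was 4, against 23.8% of features either way. Among genes with a mean of at least 10 TPM it was 2, against 21.6% of such features, because SPT21 and RTT109 lie below that mean. In the top 1000 of the ranking there were 0 of the genes in TPM and 4 with the deposited scores. There was 1 on scaled values (RLF2), 1 without 100, 140 and 150 min (HIR3) and 1 with periods of 50 to 150 min (HIR1). Without 0, 10 and 20 min there was 1 as well (SPT21), so the gene differed between settings. The top 1000 are 15.1% of the features ranked in each of these settings. Peak times in the window from 20 to 80 min were the same with the deposited scores for 5 of the 10 genes. These were ASF1, RLF2, MSI1, SPT21 and RTT109. All HIR complex genes moved, HIR1 from 60 to 70 min, HIR2 and HIR3 from 50 to 60 min and HPC2 from 50 to 40 min. CAC2 moved from 30 to 20 min. The counts for 30 to 50 min over 60 to 80 min, 110 to 130 min over 60 to 80 min and 250 to 290 min over 160 to 200 min stayed at 0 under every alternative run. Of 70 ratios of single genes, 67 kept their side of 1.5-fold with a pseudocount of 1 and 62 on scaled values, and no ratio past 1.5-fold changed direction. TPM keep no depth, so the precision of levels under 10 TPM cannot be given.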

Other observations

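With the window widened to 600 bases before the gene start and none after it, chosen after the shorter window had been seen, MCB letters were found before 3 of the 10 genes and SCB letters before 3, against 6.31% and 6.43% of 6018 promoters. The core histone genes, with 0 of 8 in the shorter window, then had SCB letters in 4 of 8 and MCB letters in 2 of 8. These matches lie between the divergently transcribed pairs HTA1 and HTB1, HHT2 and HHF2 (SCB) and HTA2 and HTB2 (MCB), so each is counted for both genes of its pair. Of the 10 G1/S genes, 6 had MCB letters, 3 had SCB letters and 7 had either in the wider window. Over all 30 time points, which include the rise after release, the features most like SPT21 were MSH6 (r of 0.85), POL1, the catalytic subunit of DNA polymerase alpha (0.83), and ALG14 (0.82), and ASF1 was the feature most like RLF2 (0.84).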
